A study of Mus musculus with 8 samples.

Results

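The level of undeaminated CpG cytosines inside genes was compared between mouse embryonic stem cells after 12 h of doxycycline (libraries A, B and C) and untreated cells (0 h, libraries A, B and C). The genes were the 20665 protein-coding genes of the 19 autosomes in a RefSeq table of GRCm38.p6, out of 49997 genes of all kinds in that table. They were put into classes by gene length and by position along the gene, without reference to any call. There were 7342 genes under 10 kb, 8598 of 10 to 50 kb, 3780 of 50 to 200 kb and 945 over 200 kb. CpGs within 1 kb of the end of any protein-coding gene were left out, and what remained is called the inner gene body. That left 667123 of the 1450409 autosomal calls of the 6 libraries (46.0%), from 15925 genes, and 2291 genes were too short to have an inner body.

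Both groups were cells of 1 stable line in which TET1, TET2 and TET3 are inactivated and which carries, on a PiggyBac transposon, the catalytic domain of mouse TET3 under doxycycline control, linked in transcription to an mCherry reporter. The controls therefore carried the same deletions and the same transgene, and both groups were kept in medium with 50 µg/ml ascorbate. The 12 h cells received 1 µM doxycycline and the 0 h cells none. No label ties the libraries to separate cultures. Each p-value therefore reflects the spread among these samples alone, and that spread may be technical. In all 8 libraries of the series the assay was APOBEC-coupled epigenetic sequencing (ACE-seq), and 2 libraries taken at 6 h were outside the comparison.

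TET enzymes oxidise 5-methylcytosine to 5-hydroxymethylcytosine (5hmC) and further. In embryonic stem cells most CpGs of gene bodies are methylated, whereas CpG islands, the CpG-rich stretches that hold the start sites of many genes, are mostly unmethylated and so offer little substrate. ACE-seq glucosylates 5hmC, which shields it, and then deaminates cytosine and 5-methylcytosine with an APOBEC enzyme. An undeaminated call was read here as 5hmC plus assay background, together with whatever else resists the APOBEC enzyme. The level is the percentage of CpG calls that were undeaminated.

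Genes also differ in the CpG content of the promoter from which they are read, and the 250 bases before the start site are shown for 4 genes, because the profile along gene bodies is compared below between promoters with many and with few CpGs. They are the best covered genes of each kind, CpG-rich and CpG-poor, in the 2 longer length classes. Each runs 5′ to 3′ on the strand of its gene, is taken from RefSeq on GRCm38.p6, and has every CG in capitals. The CpG-rich pair is Tspan9, a tetraspanin (minus strand, chr6:128143579-128143828, 19 CGs), and Camta1, a calmodulin-binding transcription activator (minus strand, chr4:151861769-151862018, 18 CGs). The CpG-poor pair is Vav2 (minus strand, chr2:27427609-27427858, 2 CGs), and Tenm4, a teneurin adhesion protein (plus strand, chr7:96170994-96171243, 4 CGs).
Tspan9: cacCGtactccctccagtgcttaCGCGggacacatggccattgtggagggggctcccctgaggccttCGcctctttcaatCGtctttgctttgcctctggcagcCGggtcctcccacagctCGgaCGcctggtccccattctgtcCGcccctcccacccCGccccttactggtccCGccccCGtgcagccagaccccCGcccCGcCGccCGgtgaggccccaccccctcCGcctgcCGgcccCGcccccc
Camta1: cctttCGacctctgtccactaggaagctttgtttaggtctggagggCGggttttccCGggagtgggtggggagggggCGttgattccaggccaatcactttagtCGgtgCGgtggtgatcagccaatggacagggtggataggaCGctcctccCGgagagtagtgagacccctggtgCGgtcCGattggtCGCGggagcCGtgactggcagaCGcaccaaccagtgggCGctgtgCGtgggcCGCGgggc
Vav2: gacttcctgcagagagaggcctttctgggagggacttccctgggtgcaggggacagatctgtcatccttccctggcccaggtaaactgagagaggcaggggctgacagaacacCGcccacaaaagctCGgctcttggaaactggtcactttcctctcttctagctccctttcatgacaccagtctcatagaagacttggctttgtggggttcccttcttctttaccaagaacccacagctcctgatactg
Tenm4: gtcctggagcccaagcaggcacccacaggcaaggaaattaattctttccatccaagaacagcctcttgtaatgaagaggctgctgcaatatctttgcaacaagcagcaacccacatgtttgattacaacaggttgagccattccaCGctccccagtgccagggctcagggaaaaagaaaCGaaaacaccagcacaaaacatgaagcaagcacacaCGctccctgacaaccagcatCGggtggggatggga

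The motif searched was CG, which reads the same on both strands. The promoters counted were 14811, 1 per gene, with the start site within 1 kb of the 5′ end of the gene. The motif occurred at least once in 92.7% of them, with a median of 10 and quartiles of 3 and 19. Promoters were called CpG-poor with at most 5 CGs and CpG-rich with more than 16. Of the positions called inside the promoter windows, 99.9% of 30501 fell on a CpG of the RefSeq sequence.

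The 0 h libraries held 87030 to 157700 CpG calls and the 12 h libraries 192565 to 485941. Library C of 12 h stood above A and B, with 26.8% of its autosomal calls undeaminated against 22.4% and 23.4%, while the 0 h libraries lay between 0.891% and 1.25%. Libraries of one group shared 0.937 to 2.63% of the positions of the smaller library, so levels are given for classes and genes and not for single CpGs. Intervals and limits on counts cover counting error only, and calls on one read are not independent.

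After 12 h, inner gene bodies were the part of the autosomes with the highest level among the 4 compartments. They held 26.6% ± 2.42 (SD, n = 3) undeaminated calls, against 1.16% ± 0.242 (SD, n = 3) at 0 h. The 12 h libraries gave 24.8, 25.6 and 29.3%, and the 0 h libraries 0.884, 1.25 and 1.34%, so the groups were far apart. With 3 libraries against 3 the two-sided exact permutation p was 0.1 and could not have been smaller. The difference was 25.7, 25.2 and 25.6 points within the 3 sequencing runs.

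Compartments and classes were then compared by their deviation, which is the level minus that of all autosomal calls of the same library, taken at 12 h minus 0 h and tested with limma. Limma shares variance among all classes tested together, and these classes overlap and share calls. The very small p-values below owe their size to that shared variance as well as to the 6 libraries. Inner gene bodies lay 2.35 ± 0.0948 points (SE, adjusted p = 6.23e-17) above their libraries. Intergenic CpGs, at 24.6% ± 2.47 (SD, n = 3) after 12 h, were 1.95 ± 0.150 points (SE, limma adjusted p = 2.35e-11) below inner gene bodies. Flanks 1 to 5 kb outside genes, at 25.5% ± 2.36, were 0.958 ± 0.329 points below them (limma adjusted p = 0.00915), but inner bodies minus flanks turned to -0.0781 and -0.0426 on the log odds scales of a logit and a quasi-binomial fit. The ends of genes stood furthest apart: within 1 kb of an end the level was 12.2% ± 1.63 (SD, n = 3), or 14.1 ± 0.272 points (SE, limma adjusted p = 8.91e-24) below inner gene bodies. Of the calls at gene ends 39.9% lay on reads with 11 or more CpGs, against 3.66% in inner bodies, and with the CpGs per read held equal the gap was 7.32 ± 0.411 points (SE).

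**Figure D1:**
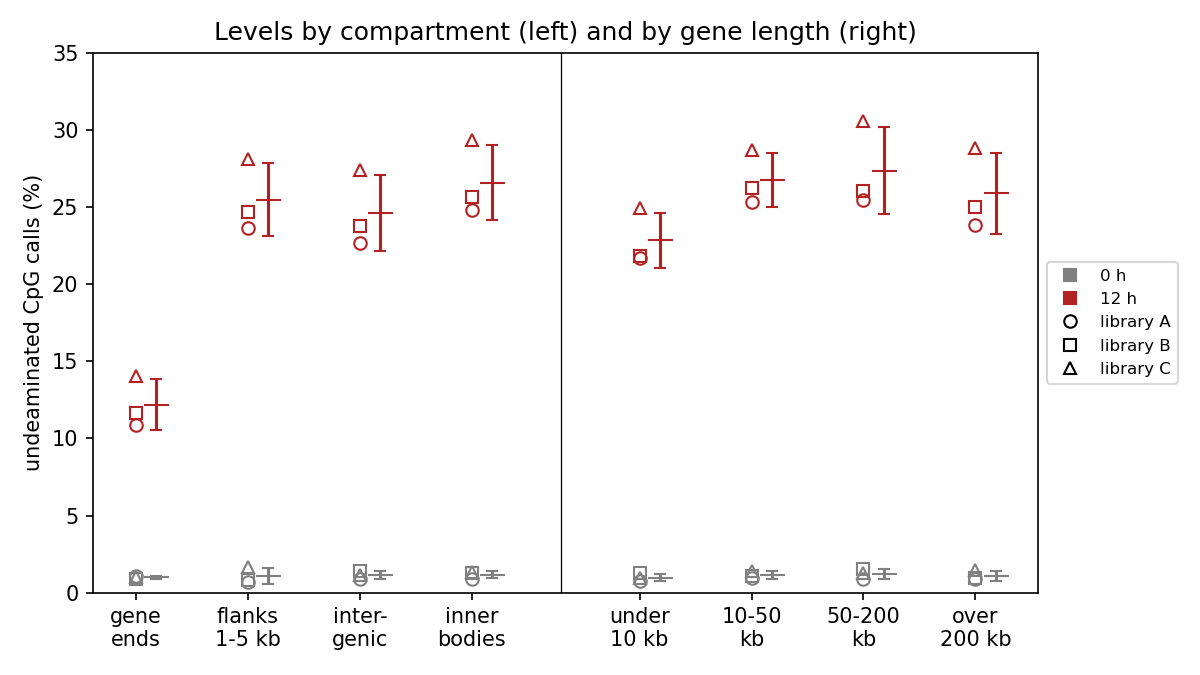
Percentage of CpG calls that were undeaminated (linear axis), in 4 compartments of the autosomes (left) and in inner gene bodies by gene length (right), for untreated cells (grey) and 12 h of doxycycline (red). Open symbols are single libraries, A circle, B square, C triangle, and the bars beside them give the mean and SD of 3 libraries. At 12 h gene ends lie at 10.9 to 14.0% and inner bodies at 24.8 to 29.3%, and within the length classes the shortest genes lie lowest.

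Across gene lengths the level did not follow length in one direction. Genes of 10 to 50 kb reached 26.8% ± 1.74 and genes of 50 to 200 kb 27.4% ± 2.81, while genes under 10 kb reached 22.8% ± 1.81 and those over 200 kb 25.9% ± 2.64 (SD, n = 3 each). The 12 h libraries A, B and C gave 21.7, 21.9 and 24.9% in the shortest genes. They gave 25.3, 26.2 and 28.7% in genes of 10 to 50 kb. They gave 25.5, 26.1 and 30.6% in genes of 50 to 200 kb, and 23.8, 25 and 28.9% in the longest. Library C was high in every class. The shortest genes were lowest in each library, whereas the longest lay below both middle classes in A and B but, in C, only below genes of 50 to 200 kb. At 0 h every class lay between 0.773 and 1.55% in every library.

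All 4 length classes passed the limma test of the deviation, where 90.8% of the 65 classes and differences of the table did. Genes of 10 to 50 kb and of 50 to 200 kb lay 2.71 ± 0.199 and 2.97 ± 0.180 points above their libraries (SE). Genes over 200 kb lay 1.65 ± 0.191 points above (SE, limma adjusted p = 2.52e-08). Against inner gene bodies, which themselves lay above their libraries, they were at -0.702 (limma adjusted p = 0.0189). With the CpGs per read held equal, which also takes inner gene bodies as the reference, they were at -1.01 ± 0.173 (SE, adjusted p = 0.00768). Genes under 10 kb lay 1.05 ± 0.469 points below their libraries (SE, limma adjusted p = 0.0405). This small deviation turned to +0.643 with 1 call taken per read, to +0.503 within sequencing run 1 and to +0.0717 and +0.0872 on the 2 log odds scales. The call was lost without 0 h A (adjusted p = 0.0783), 12 h B (0.191) or 12 h C (0.0827). Genes over 200 kb lay 1.32 ± 0.271 points below genes of 50 to 200 kb (SE, limma adjusted p = 9.31e-05), with 12 h differences of the same sign in all 3 libraries. On the 2 log odds scales this difference turned to +0.00492 and +0.000856. Between genes of 50 to 200 kb and of 10 to 50 kb the difference was 0.261 points, with a 95% interval of -0.328 to 0.850 (limma adjusted p = 0.413).

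These calls belong to the percent scale where 12 h is set against 0 h. Log odds in the 12 h libraries alone leave out 0 h. In that setting 86 of the class results stayed the same, 1 was weaker and 1 stronger. On the empirical logit scale, which sets the odds at 12 h against those at 0 h, limma called 0 of the 4 length classes (0 at an unadjusted p under 0.05) and 1 of the 15 position bins. A quasi-binomial model called 0 of both, with 0 and 1 at an unadjusted p under 0.05.

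Along the gene the level was lowest at the 5′ end. Of the 20665 genes, 16457 (79.6%) had a strand in the promoter table, and their inner bodies were cut into 10 equal bins from the 5′ to the 3′ end. Bin 1 reached 22.1% ± 1.85 (SD, n = 3) at 12 h, bin 2 reached 26.4% ± 2.23 and bins 3 to 10 lay between 26.6 and 27.9%. Bin 1 was at 20.6, 21.5 and 24.1% in libraries A, B and C, and bin 10 at 26.1, 26.8 and 30.1%. In each library the 5′ bin was below the 3′ bin. All 10 bins passed the limma test, 9 above the library and 1 below. Bin 2 turned below it on the 2 log odds scales (-0.158 and -0.161). Against inner gene bodies, a reference above the library, bin 2 was at -0.461. With the CpGs per read held equal, which also takes inner gene bodies as the reference, bin 2 was at -0.484 and bin 5 at -0.126. Bin 1 lay 2.07 ± 0.374 points below its library (SE, adjusted p = 1.96e-05).

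Bin 1 minus bin 10 came to -5.54 ± 0.475 points (SE, limma adjusted p = 1.50e-10). The same difference was -8.34 ± 2.26 in genes under 10 kb, -7.51 ± 0.921 in genes of 10 to 50 kb, -6.34 ± 0.677 in genes of 50 to 200 kb and -2.01 ± 0.759 in genes over 200 kb (SE). All 4 passed the limma test, with adjusted p-values of 0.00206, 7.80e-08, 7.47e-09 and 0.0201, and whether they differ from one another was not tested. In genes over 200 kb the call was lost with the CpGs per read held equal (-1.28, adjusted p = 0.125), with 1 call per read (-1.33, 0.194) and with 1 kb left out around every start site (-0.886, 0.292), and the sign turned on the 2 log odds scales (+0.184 and +0.143). In the shortest genes bin 1 was at 17.5, 15.2 and 13.8% in the 12 h libraries and bin 10 at 22.1, 24.8 and 27.4%, and in the longest bin 1 was at 22.4, 23.3 and 26.9% and bin 10 at 25.1, 25.5 and 29.1%. Calls on reads with 11 or more CpGs made up 11.9% of bin 1 and 2.82% of bin 10. With the CpGs per read held equal, bin 1 minus bin 10 was -3.97 ± 0.448 points (SE, limma adjusted p = 0.00192). With 5 kb left out around gene ends it was -1.62 (adjusted p = 0.0252), bin 1 itself then lying 1.35 above its library, with 1 kb also left out around every start site it was -2.72 (1.02e-08), and with 1 call per read -2.19 (5.28e-05).

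**Figure D2:**
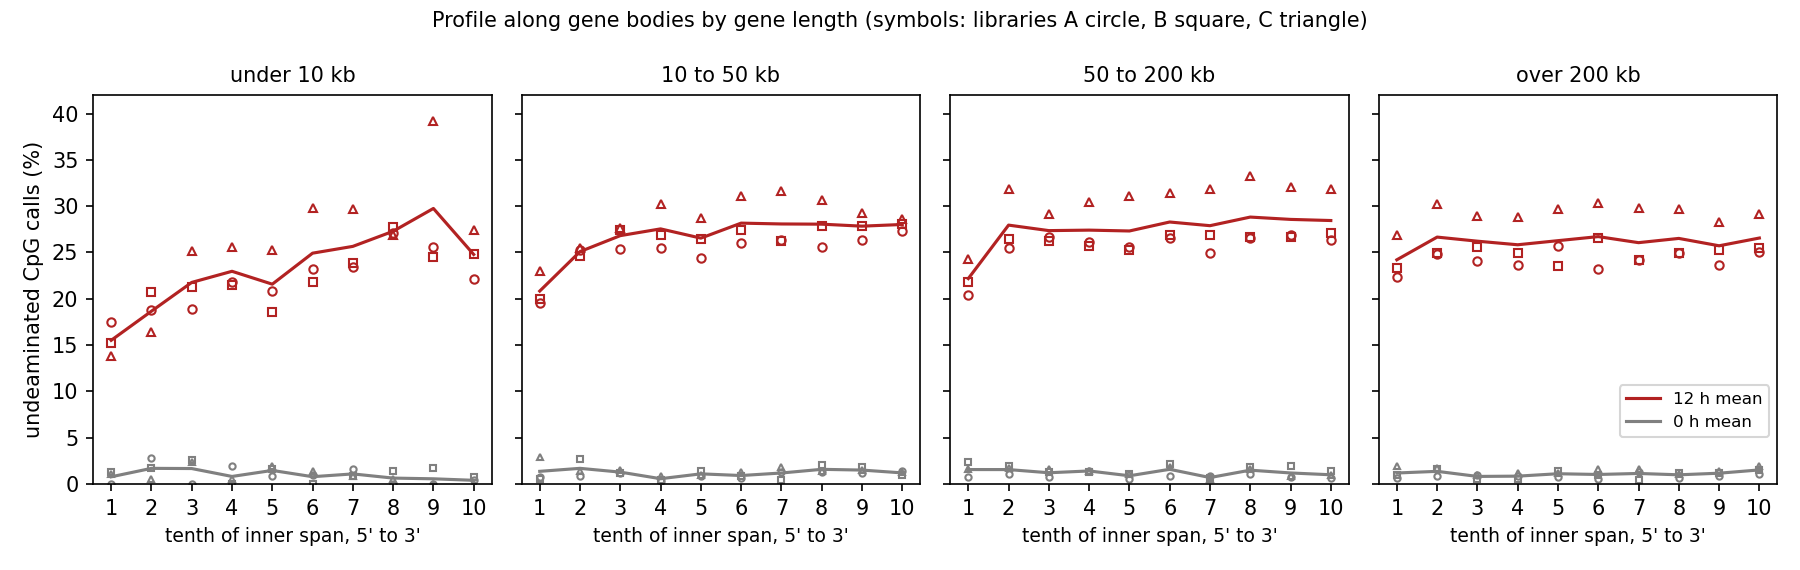
Undeaminated CpG calls (percent) in 10 equal bins of the inner gene body from the 5′ to the 3′ end, 1 panel per length class, for genes with a known strand. Symbols are single libraries (A circle, B square, C triangle), lines are means of 3 libraries, red 12 h and grey 0 h. The 12 h line starts at 15.5% in genes under 10 kb and at 24.2% in genes over 200 kb, and the 0 h line stays near the axis throughout.

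For all genes, stranded or not, positions were also folded into 5 bins counted from the nearer end. The outermost of these reached 25.1% ± 2.22 and the middle one 27.0% ± 2.58 (SD, n = 3), a difference of -1.96 ± 0.290 points (SE, limma adjusted p = 1.25e-06). It was -2.77 ± 0.582 in genes of 10 to 50 kb, -1.99 ± 0.470 in genes of 50 to 200 kb and -1.17 ± 0.527 in genes over 200 kb, all past the limma threshold. With 1 kb left out around every start site the last 2 no longer passed (-0.912 and -0.812, adjusted p = 0.0579 and 0.143). In genes under 10 kb it was -2.12 ± 1.58 (SE) and missed the threshold (limma adjusted p = 0.208). Of the 20 combinations of length and folded bin, 15 lay above their libraries and 1 below. The one below was the outermost bin of the shortest genes, at 19.1, 19.7 and 19.7% in the 12 h libraries, and the 4 that did not pass were the other bins of that class.

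Distance in kb separated the ends more sharply than relative position. From 1 to 2 kb inside the 5′ end the level was 16.4% ± 1.51 (SD, n = 3) at 12 h, with 14.9, 16.4 and 17.9% in libraries A, B and C. At the same distance from the 3′ end it was 27.4% ± 2.06, with 25.6, 26.9 and 29.6%, so the groups of libraries did not overlap between the ends. The difference of the ends was -10.7 ± 0.867 points (SE, limma adjusted p = 4.93e-11). These distance classes were added after the length and position classes had been analysed, in a second table of 131 classes and differences of which 74.8% passed. Every call of a stranded gene was counted by its distance from the 5′ end and again by that from the 3′ end. The 2 sides thus share calls, and a class far from the 3′ end can hold calls close to a 5′ end. From 2 to 5 kb the 5′ side reached 23.8% ± 1.60 and the 3′ side 26.8% ± 1.59, and the difference shrank to -2.89 ± 0.506 points (SE, limma adjusted p = 1.61e-05).

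From 5 to 25 kb the 2 sides were close. The differences were 0.259 points from 5 to 10 kb (95% interval -0.592 to 1.11) and 0.236 from 10 to 25 kb (-0.416 to 0.888), and neither passed. Farther in, the classes counted from the 5′ end were higher than those counted from the 3′ end, which can hold calls close to a 5′ end. The differences were 1.20 ± 0.353 points from 25 to 50 kb, 1.31 ± 0.351 from 50 to 100 kb and 0.647 ± 0.270 over 100 kb (SE, limma adjusted p = 0.00367, 0.00190 and 0.0335). With 1 kb left out around every start site those 3 were 0.645, 0.545 and 0.306 and no longer passed (adjusted p = 0.0909, 0.160 and 0.298). On the 2 log odds scales the difference from 25 to 50 kb turned to -0.0160 and -0.0157. The difference from 1 to 2 kb was -6.60 points with 1 kb left out around every start site (limma adjusted p = 2.17e-09). With CpGs per read held equal it was -7.73 ± 0.877 points (SE, limma adjusted p = 6.57e-05). Of the calls 1 to 2 kb from the 5′ end 46.3% lay on reads with 6 or more CpGs, against 26.4% at the 3′ end.

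Measured from the nearer end, whichever it was, the level climbed from 21.4% ± 1.78 at 1 to 2 kb to 27.8% ± 2.93 at 10 to 25 kb and came down again to 25.5% ± 2.73 over 100 kb (SD, n = 3 each). The 3 classes lay -2.59 ± 0.360, 3.50 ± 0.210 and 1.28 ± 0.268 points from their libraries (SE), and all 7 distance classes passed the limma test. The deep interior of long genes thus lay above the library but below the stretch 10 to 25 kb from an end. Its sign was not stable: over 100 kb the deviation was -0.443 with 1 call per read. Against inner gene bodies, which themselves lay above their libraries, it was -1.07. With CpGs per read held equal, which also takes inner gene bodies as the reference, it was -1.48.

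**Figure D3:**
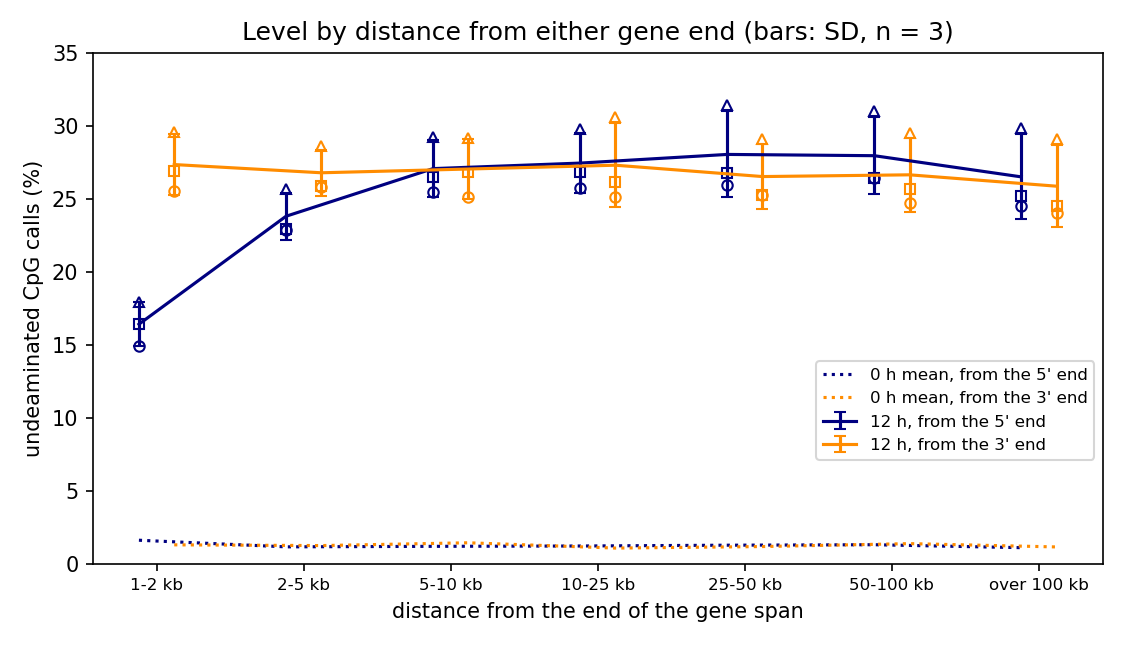
Undeaminated CpG calls (percent) by distance in kb from the 5′ end (blue) and from the 3′ end (orange) of the gene, for genes with a known strand. Each call is counted from both ends. Solid lines are 12 h means with SD of 3 libraries, symbols are single libraries (A circle, B square, C triangle), and dotted lines are 0 h means. The 2 sides differ at 1 to 2 kb, 16.4% against 27.4%, and lie close together from 5 to 25 kb.

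CpG-dense reads were low in genes of every length. Reads were sorted by their number of CpG calls, from 1 to 11 or more. On reads with 11 or more, the 12 h level was 7.76% ± 2.91 in genes under 10 kb, 9.19% ± 1.12 in genes of 10 to 50 kb, 8.85% ± 1.77 in genes of 50 to 200 kb and 11.1% ± 2.38 in genes over 200 kb (SD, n = 3 each). On reads with a single CpG the levels were 27.5% ± 3.77, 26.9% ± 2.16, 27.4% ± 2.65 and 24.5% ± 2.37 in the same order. Short genes had more of their calls on CpG-rich reads: 36.4% lay on reads with 6 or more CpGs, against 19.3, 13.7 and 9.30% in the longer classes.

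On the percent scale and at equal CpGs per read, the longest genes lay below those of 50 to 200 kb on sparse reads. The difference was -2.48 ± 0.460 points at 1 CpG, -1.58 ± 0.472 at 2 and -1.24 ± 0.472 at 3 (SE, limma adjusted p = 3.34e-05, 0.00416 and 0.0209), and it did not pass in the 3 denser classes. At 1 CpG it turned to +0.137 and +0.141 on the 2 log odds scales. The shortest genes minus those of 10 to 50 kb passed in 1 of the 6 classes, with 6 to 10 CpGs, at -3.70 ± 1.04 points (SE, limma adjusted p = 0.00272). That difference turned to +1.64 on the logit scale (limma adjusted p = 0.0195) and to +1.72 in the quasi-binomial model (0.423). In the other classes it was between -1.96 and 0.291 and did not pass. Standardised to the CpGs per read of all inner gene bodies, genes over 200 kb minus those of 50 to 200 kb gave -1.49 ± 0.326 (SE, limma adjusted p = 0.0146), while genes over 200 kb minus those under 10 kb fell from 2.69 ± 0.526 to 0.289 ± 0.463, no longer a call (adjusted p = 0.635).

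**Figure D4:**
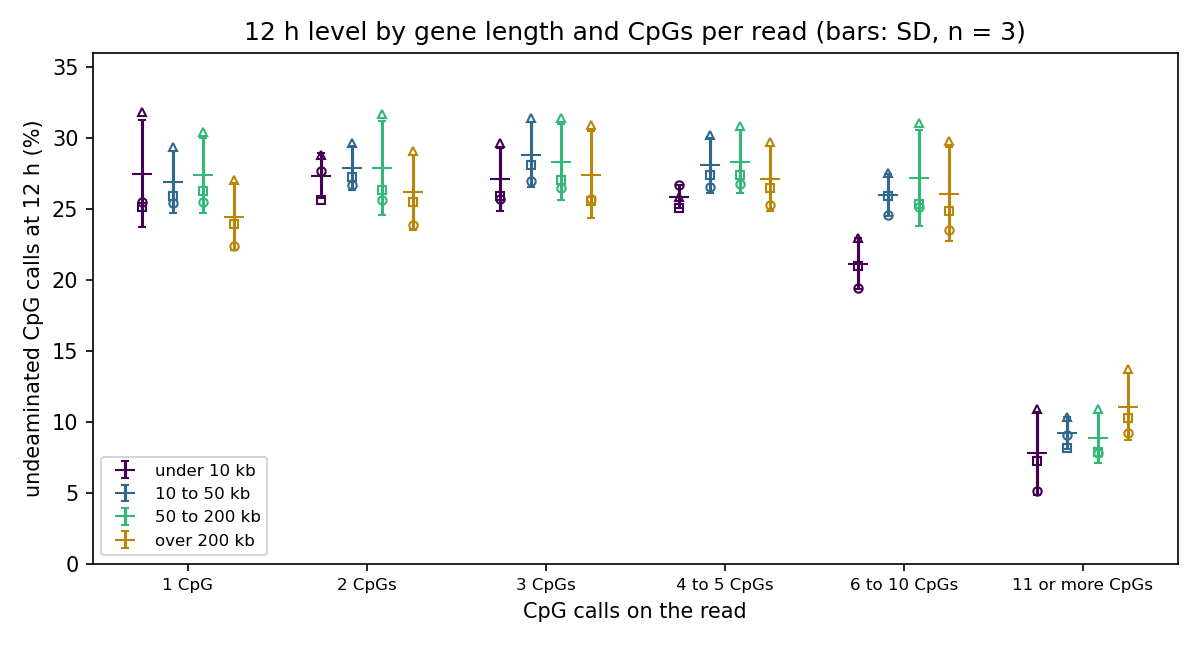
Undeaminated CpG calls at 12 h (percent) by number of CpG calls on the read and by gene length (colours). Horizontal ticks and bars give the mean and SD of 3 libraries, symbols single libraries (A circle, B square, C triangle). From 1 to 10 CpGs per read the means lie between 21.1 and 28.8%, and with 11 or more they lie between 7.76 and 11.1% in all 4 length classes.

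Genes read from CpG-rich and CpG-poor promoters, such as the pairs shown above, differed at the promoter and, in the other direction, in the body. Of 14811 genes whose start site lay within 1 kb of the 5′ end, 4856 had CpG-rich, 4570 middle and 5385 CpG-poor promoters. In windows of 300 bases at the start site, CpG-rich promoters held 1.67, 2.39 and 5.84% undeaminated calls in the 12 h libraries and 0.410 to 1.89% at 0 h, so these 2 ranges overlapped. CpG-poor promoters held 26.7, 22.5 and 23.0% at 12 h, far above the CpG-rich ones. The CpG-rich windows had 78.8% of their calls on reads with 11 or more CpGs and the CpG-poor ones 3.17%. The windows lay 21.2 ± 0.724 points below their libraries when CpG-rich and 17.9 ± 0.867 below when middle (SE, limma adjusted p = 2.72e-18 and 2.99e-15), and 0.373 ± 2.21 below when CpG-poor (adjusted p = 0.881). With the CpGs per read held equal, which takes inner gene bodies as the reference, middle windows were lower than CpG-rich ones. They were at -13.8 ± 0.714 and -9.38 ± 0.989 (SE), and CpG-poor windows at -2.60 ± 2.18 (limma adjusted p = 0.343). The CpG-poor windows rest on 976 calls at 12 h.

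More than 5 kb from the 5′ end, the bodies of genes with CpG-rich promoters reached 28.4% ± 2.41 at 12 h, those with middle promoters 27.4% ± 2.75 and those with CpG-poor promoters 25.6% ± 3.49 (SD, n = 3 each). In libraries A, B and C the first gave 26.7, 27.3 and 31.2% and the last 22.8, 24.6 and 29.5%. The difference was 3.20 ± 0.400 points (SE, limma adjusted p = 1.05e-07), positive in all 3 of the 12 h libraries, and 2.95 ± 0.443 at equal CpGs per read (adjusted p = 0.000574). Over the whole inner body, near and far stretches together, CpG-rich minus CpG-poor was 2.80 ± 0.608, 2.97 ± 0.552 and 3.07 ± 0.751 in genes of 10 to 50, 50 to 200 and over 200 kb, each past the limma threshold. Over 200 kb, however, 12 h C showed almost no difference, at 30.33% with CpG-rich and 30.26% with CpG-poor promoters. Libraries A and B gave 25.1 and 26.2% against 21.4 and 23.3%. At 0 h the CpG-poor genes of that length were higher in B and C (2.14 and 1.79% against 0.825 and 1.43%) and lower in A (0.675 against 0.836%). In genes under 10 kb, 55.5% of which had CpG-poor promoters, the difference did not pass (adjusted p = 0.631).

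In the first 5 kb, from 1 kb inside the 5′ end, the order was not resolved. The level there was 22.1% ± 2.36 with CpG-rich and 23.1% ± 1.70 with CpG-poor promoters, a difference of -0.603 points with a 95% interval of -2.57 to 1.36 (limma adjusted p = 0.597). The step from this stretch to the rest of the body was -6.07 ± 0.564 points with CpG-rich, -3.57 ± 0.664 with middle and -2.24 ± 0.843 with CpG-poor promoters (SE, limma adjusted p = 7.13e-10, 3.41e-05 and 0.0200). At equal CpGs per read these were -4.14 ± 0.529, -2.25 ± 0.706 and -0.661 ± 0.799, and the last no longer passed (adjusted p = 0.502). With 1 call per read they were -1.74, -0.771 and -0.251, and only the first passed (adjusted p = 0.0179, 0.365 and 0.844). Whether the steps differ from one another was not tested.

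**Figure D5:**
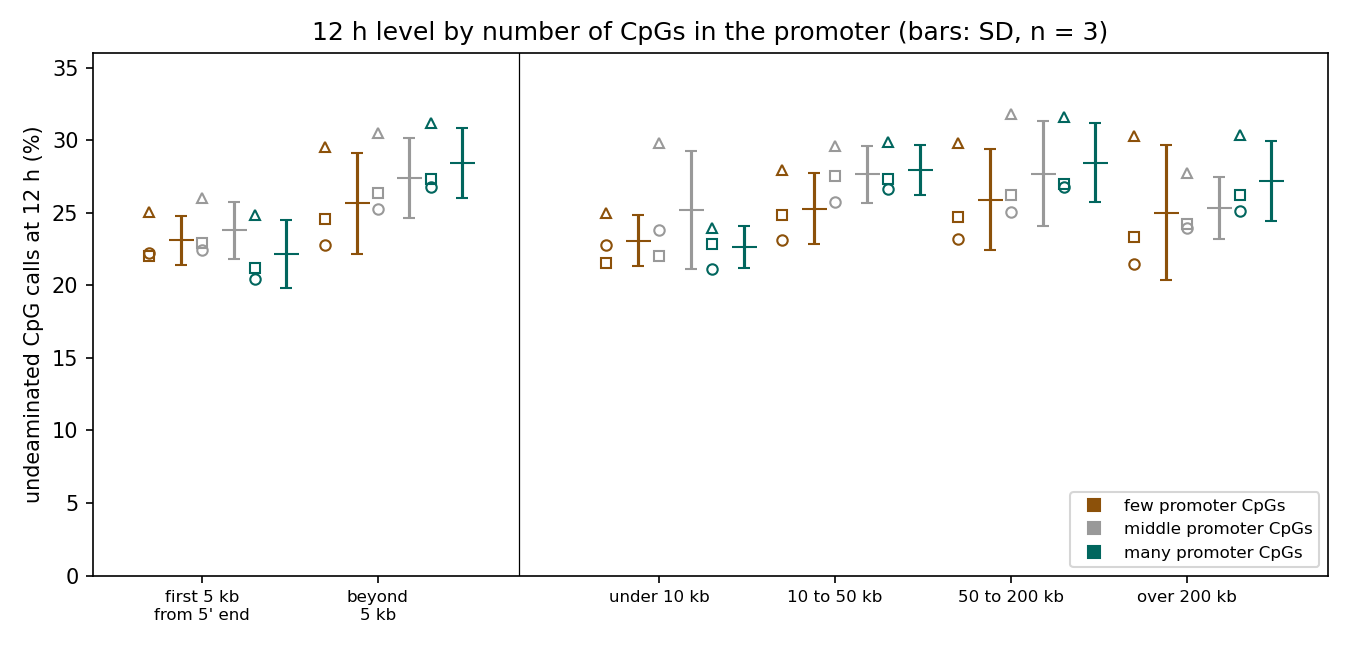
Undeaminated CpG calls at 12 h (percent) in inner gene bodies by the number of CGs in the 250 bases before the start site (brown few, grey middle, green many), near and far from the 5′ end (left) and by gene length (right). Symbols are single libraries (A circle, B square, C triangle), ticks and bars the mean and SD of 3 libraries. Beyond 5 kb the means rise from 25.6% to 28.4% with promoter CpGs, and the same order of few below many is seen in the 3 classes over 10 kb.

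Single genes could be tested only where at least 10 inner calls fell in each of the 6 libraries, which was so for 473 genes: 354 over 200 kb, 116 of 50 to 200 kb, 3 of 10 to 50 kb and 0 shorter ones. Their level at 12 h, pooled over libraries, ranged from 9.73 to 41.9% with a median of 25.2%. The level itself rose in 461 of them (limma adjusted p under 0.05, 97.5% of those tested). Of the 473, 9 genes (1.90%) deviated from their libraries, 8 above (1.69%) and 1 below (0.211%), and 83 had an unadjusted p under 0.05. The reference was all autosomal calls, which lay below inner gene bodies, and the median deviation of the 473 genes was 1.59 points. The count was 0 without 0 h A, B or C or without 12 h A, 14 without 12 h B and 6 without 12 h C. It was 0 on the logit scale, in the quasi-binomial model and without weights. It was also 0 when centred on inner gene bodies, with CpGs per read held equal and in the 12 h libraries alone. The 9 are given as a description of these libraries.

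Ptpn14 codes for a cytosolic tyrosine phosphatase linked to Hippo signalling and spans 148 kb (chromosome 1, 189728216 to 189876695). It had 34, 43.2 and 41.5% undeaminated calls at 12 h, from 100, 118 and 41 calls, and 1 of 109 at 0 h. All 3 values were above the inner gene-body level of their library, and the deviation was 16.1 ± 2.59 points (SE, limma adjusted p = 0.0374). Cmip, the c-Maf inducing protein (chromosome 8, 117257019 to 117461506), had the smallest adjusted p, 0.0299, with 33.3, 35.4 and 40% at 12 h and none of 77 at 0 h, a limit of 3.90%. Its deviation was 12.8 ± 1.52 points (SE).

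Exoc4, a subunit of the exocyst that tethers secretory vesicles, had 34.7 to 42.3% at 12 h. Scfd2, of the Sec1 family of trafficking proteins, had 32.1 to 39.3%, and Tbc1d16, a Rab GTPase-activating protein, 33.3 to 47.1%. These 3, like Pebp4 (27.8 to 39.8%), deviated by 14.7 to 15.8 points, although Exoc4 and Scfd2 turned to -0.273 and -0.224 on the logit scale. At 0 h these 2 genes had 0 of 50 and 0 of 54 calls undeaminated. Their 0 h log odds, and with them the signs, therefore rest on the 0.5 added to each count. Arl15, an Arf-like GTPase (31.1 to 38.7%), and Igsf21, a synaptic adhesion protein (29.5 to 39.1%), deviated by 10.8 and 11 points. Cmip, Igsf21 and Arl15 fell outside the rule for named genes, which took 5 on each side, and were added because they complete the 8.

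Cdk8, the kinase of the Mediator complex (chromosome 5, 146230795 to 146302874), was the gene below, with 6.15, 11.8 and 11.5% at 12 h and 0 of 57 calls at 0 h (up to 5.26%). Its deviation was -13.2 ± 2.17 points (SE, limma adjusted p = 0.0374). The quasi-binomial model gave +18.1 in log odds (adjusted p = 0.999), but with 0 undeaminated calls at 0 h it has no finite estimate. Of its 185 calls at 12 h, 155 lay in 10 kb windows that hold 200 or more calls over all libraries, and 6 of these were undeaminated (3.87%). The other 30 calls held 12 undeaminated ones, or 40%, and without such windows Cdk8 had too few calls to be tested. Otud7a, a deubiquitinase with 7.14, 9.62 and 14.3%, deviated by -14.7 ± 4.20 points and did not pass (limma adjusted p = 0.170).

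The genes with the most calls, chosen by coverage, show how levels spread within a length class. Over 200 kb these were Cdh13 (T-cadherin), Camta1, Wwox (a WW-domain oxidoreductase), Gse1 and Agap1 (an Arf GTPase-activating protein), with 581 to 928 calls at 12 h. Their 12 h levels were 23.4, 26.4, 24.7, 28.9 and 32.2%, and at 0 h 2 to 6 of their calls were undeaminated. From 50 to 200 kb, beside Ptpn14, they were Sfi1, which codes for a centrosomal protein, at 24.8%, Cit, the citron kinase of cytokinesis, at 33.7%, Tspan9 at 29.5% and Hlcs, the biotin ligase holocarboxylase synthetase, at 27.7%. Of these 10 genes, Ptpn14 was the one that passed the test. The libraries disagreed most for Hlcs, with 32.5, 26.6 and 11.1%, and for Tspan9, with 40, 20.3 and 28.3%.

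From 10 to 50 kb the best covered genes were Zc3h7a at 13.3%, Agap3 at 33%, Unc13a, a synaptic vesicle priming factor, at 20.0%, Mroh2a at 20.2% and Kmt2d, a histone H3 lysine 4 methyltransferase, at 24.6%. Zc3h7a was at 10.5, 32.0 and 2.17% in the 3 libraries. Under 10 kb the most covered genes were low at 12 h. Evx2, a homeobox gene beside the HoxD cluster, had 0 of 83 calls undeaminated, which allows up to 3.61%, and Tchh, which codes for the hair follicle protein trichohyalin, 1 of 67. Tmem151b had 12 of 77, Ccdc177 13 of 78 and LOC100504180 13 of 72. Among all genes with 50 or more calls at 12 h the median was 25% in 339 genes of 10 to 50 kb, 26.4% in 1584 of 50 to 200 kb and 24.8% in 852 over 200 kb. The SD between genes was 8.98, 6.65 and 5.29 points in these classes, where binomial sampling of independent calls would give 5.55, 4.98 and 3.88. Under 10 kb only 8 genes had 50 or more calls, with a median of 8.60%. They do not stand for their class, which held 21.7, 21.9 and 24.9% in the 12 h libraries. Gene levels were only weakly correlated between 12 h libraries. With at least 50 calls in both libraries, Pearson r was 0.146 for A and B (622 genes), 0.132 for A and C (115) and 0.127 for B and C (113).

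Gene groups by function were pooled over their members and are described without a test. Chemoreceptor genes (olfactory, vomeronasal and trace amine receptors) were the lowest at 12 h, with 18% ± 1.18 (SD, n = 3) in 143 of 1471 genes that had calls, and 0 of 166 calls at 0 h (up to 1.81%). They lay 7.80 to 10.2 points below the inner gene bodies of the same library in all 3 libraries. Ribosomal protein genes, at 23.6% ± 2.01, and pluripotency genes such as Esrrb and Nr5a2, at 23.1% ± 6.67, lay above the inner gene-body level in at least 1 library, as did collagens at 24.6% ± 2.70 and keratins at 26.9% ± 1.05. Zinc finger genes (25.2% ± 3.42), solute carriers (25.7% ± 2.69) and potassium channels (25.8% ± 2.83) lay 0.760 to 1.39 points below on average, and below in each library.

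A group of 30 very long genes was listed for neuronal and adhesion genes, but it also held others such as the oxidoreductase gene Wwox. All 30 had calls, and their median length was 1284 kb. They reached 23.3% ± 1.24 (SD, n = 3) at 12 h, 2.53 to 4.66 points below inner gene bodies in each library. Of these, 26 were among the tested genes and 0 passed on either side (limma), where 1.90% of all tested genes did, too few for this count to set the group apart. They had a median deviation of -1.80 points against 1.59 over all 473 tested genes. Chemoreceptors, ribosomal proteins, keratins and pluripotency genes had 0 tested genes. The zinc finger genes had 5, and solute carriers, potassium channels and collagens 6 each, and 0 of them passed.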

How the data were processed

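Each deposited file lists CpG calls of 1 library, with a read name, chromosome, position and a call letter, capital for undeaminated. The letters are the values as deposited by the authors (unit: other), written, per the file headers, by version 0.22.3 of the Bismark extractor. Per the submitters' processing notes Trim Galore and GRCm38 were used. How reads were aligned, and whether duplicates were removed, is not given in the sources used here. Libraries started from 10 ng DNA sheared to fragments near 300 bp, and were read in 3 runs with 150 bp chemistry, per the labels' protocols.

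Groups and replicate letters came from the titles. Gene spans are from a RefSeq table of GRCm38.p6, which gives no exons, so exons and introns were not told apart; strand and promoter sequences come from a RefSeq promoter table. Calls covered by several genes (7005) were left out. Levels in percent minus the library level were fitted with limma 3.58.1 in R 4.3.3 over the 6 libraries, weighted by calls over binomial variance, with Benjamini-Hochberg adjustment over the whole table and a threshold of 0.05. Variances were moderated over all rows of that table. Classes needed 50 calls in every library and genes 10. The gain was fitted alike on the levels themselves, and as all classes share that rise, gains are not independent. The limma fits were tested on simulated data with independent calls, which hold no clustering of calls on reads, unlike these libraries. Of single genes changed by 5, 10 and 15 points they recovered 13, 43 and 61 of 66 each. Of 275 unchanged genes they called 5. Classes changed by 1 point were recovered in 8 of 8 cases. Exact permutation tests used scipy 1.17.1 in Python 3.11.15.

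"CpGs per read held equal" means the deviation from the level expected from 6 classes of CpG calls per read in inner gene bodies of the same library. Named genes were the 5 with most inner calls in each length class, up to 5 genes past the threshold on each side, filled to 3 by size of deviation, and the 2 best covered of each group by function. The group of histones matched 0 symbols. Classes, genes and lists were chosen with earlier results of these data known. Promoter classes, distances from each end, and length by CpGs per read were added after seeing the data, as were 2 alternatives: 1 kb left out around every start site, and log odds in the 12 h libraries alone. Other alternatives left out libraries, and changed the scale, weights, reads, margins, overlaps and coverage minimums. The 3 runs were read from the read names.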

Additional observations from a re-analysis of the deposited data

Results flagged for a closer look

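The 6 h libraries lie outside the comparison, and their inner gene bodies held more undeaminated calls than those of any 0 h library. The level was 7.26% in 6 h library A and 6.89% in 6 h library B, against 0.884 to 1.34% at 0 h and 24.8 to 29.3% at 12 h.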

How the results depend on the processing

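As reported, the calls were 4 length classes, 15 oriented and folded position bins, 16 combinations of length and folded bin, 7 distances, 13 differences and 9 single genes. They became 0, 1, 0, 0, 1 and 0 on the logit scale and 0 throughout in the quasi-binomial model. With CpGs per read held equal, 2 length classes, 4 bins, 7 combinations and 0 genes passed, and with 1 call per read 2 length classes and 0 genes. Centring on inner gene bodies left 8 bins and 0 genes. Within run 1, 7 bins, 5 combinations, 4 distances and 3 differences passed, and with 5 kb left out around gene ends 7 differences. Single genes numbered 5 with all 8 libraries, 5 without high-copy windows, 3 and 5 with minimums of 5 and 20 calls, and 0 without weights or in the 12 h libraries alone. Leaving out 1 library gave 3 to 4 length classes, 14 to 16 combinations, 11 to 14 differences, 0 to 14 genes, always 15 bins and 7 distances, and a gene-body difference of 24.1 to 26.3 points. The letters were not treated as pairs. Residual correlations of same-letter libraries were -0.00282, -0.112 and 0.0107 over 473 genes, and those of different letters ran from -0.0813 to 0.102. Gene levels were only weakly correlated even between 12 h libraries, so these values cannot show whether the letters pair samples. The fit with the replicate block called 4, 15, 15, 7, 13 and 6. Alternatives not named here kept every count within 1.5 times.

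Some values changed sign, and the cause was not tested. With CpGs per read held equal, and when centred on inner gene bodies, the reference is inner gene bodies and not the library. Inner gene bodies themselves lay above their libraries, so a class with a negative value there can still lie above its library. With CpGs per read held equal the values were -2.12 for intergenic, -1.15 for flanks 1 to 5 kb, -1.01 for genes over 200 kb and -0.484 for bin 2. There they were also -0.126 for bin 5, -0.833 for folded bin 1, -0.342 for nearer-end distance 50 to 100 kb and -1.48 for nearer-end distance over 100 kb. Added to these were -0.0985 for 50 to 200 kb minus 10 to 50 kb, -0.144 for 3′ distance 25 to 50 kb, -0.108 for 3′ distance 50 to 100 kb and -0.624 for 5′ distance over 100 kb. Next came -1.05 for 3′ distance over 100 kb and -1.51 for promoter CpGs few, beyond 5 kb. Centred on inner gene bodies the values were -1.95 for intergenic, -0.957 for flanks 1 to 5 kb, -0.702 for genes over 200 kb and -0.461 for bin 2. The same setting gave -1.45 for folded bin 1, -0.439 for nearer-end distance 2 to 5 kb, -1.07 for nearer-end distance over 100 kb and -0.0276 for 3′ distance 25 to 50 kb. Added to these were -0.108 for 3′ distance 50 to 100 kb, -0.201 for 5′ distance over 100 kb, -0.845 for 3′ distance over 100 kb and -1.39 for promoter CpGs few, beyond 5 kb. With 1 call per read the values were -0.957 for intergenic, 0.643 for genes under 10 kb, -0.443 for nearer-end distance over 100 kb and -0.422 for over 200 kb minus under 10 kb. There they were also -0.251 for 50 to 200 kb minus 10 to 50 kb, 1.28 for 5′ distance 2 to 5 kb, -0.255 for promoter CpGs few, beyond 5 kb and 0.759 for promoter CpGs middle, first 5 kb. Added to these were 0.907 for promoter CpGs many, first 5 kb, -0.176 for 5′ minus 3′ side, 10 to 25 kb and 1.4 for many minus few promoter CpGs, first 5 kb. With 1 kb left out around every start site the values were -0.757 for intergenic, -0.0578 for 50 to 200 kb minus 10 to 50 kb, 0.618 for 5′ distance 2 to 5 kb and 0.134 for promoter CpGs middle, first 5 kb. The same setting gave -0.12 for 5′ minus 3′ side, 10 to 25 kb and 0.138 for many minus few promoter CpGs, first 5 kb. Within run 1 the values were -0.385 for flanks 1 to 5 kb, 0.503 for genes under 10 kb, -1.34 for 50 to 200 kb minus 10 to 50 kb and 2.24 for 5′ distance 2 to 5 kb. There they were also 1.27 for promoter CpGs many, first 5 kb, -0.967 for 5′ minus 3′ side, 5 to 10 kb and -1.05 for 5′ minus 3′ side, 10 to 25 kb. Within run 3 the values were 0.595 for outermost minus middle folded bin, under 10 kb and 0.193 for promoter CpGs middle, first 5 kb. On the logit scale the values were 0.0717 for genes under 10 kb, -0.158 for bin 2, 0.00492 for over 200 kb minus 50 to 200 kb and -0.00487 for 50 to 200 kb minus 10 to 50 kb. The same setting gave 0.445 for outermost minus middle folded bin, under 10 kb, -0.0781 for inner gene bodies minus flanks, 0.00803 for 5′ distance 2 to 5 kb and -0.0788 for 3′ distance 5 to 10 kb. Added to these were -0.0243 for 3′ distance 50 to 100 kb, -0.100 for promoter CpGs few, beyond 5 kb, 0.123 for promoter CpGs many, first 5 kb and -0.132 for 5′ minus 3′ side, 10 to 25 kb. Next came -0.016 for 5′ minus 3′ side, 25 to 50 kb, 0.137 for over 200 kb minus 50 to 200 kb, 1 CpG, 1.64 for under 10 kb minus 10 to 50 kb, 6 to 10 CpGs and 0.184 for bin 1 minus bin 10, over 200 kb. The last were 0.493 for many minus few promoter CpGs, first 5 kb, -0.273 for Exoc4 and -0.224 for Scfd2. Both genes had 0 undeaminated calls at 0 h. In the quasi-binomial model the values were 0.0872 for genes under 10 kb, -0.161 for bin 2, -0.00258 for folded bin 2 and 0.000856 for over 200 kb minus 50 to 200 kb. There they were also -0.00755 for 50 to 200 kb minus 10 to 50 kb, 0.433 for outermost minus middle folded bin, under 10 kb, -0.0426 for inner gene bodies minus flanks and -0.0465 for 3′ distance 1 to 2 kb. Added to these were 0.00939 for 5′ distance 2 to 5 kb, -0.0809 for 3′ distance 5 to 10 kb, -0.032 for 3′ distance 50 to 100 kb and -0.112 for promoter CpGs few, beyond 5 kb. Next came 0.0273 for promoter CpGs many, first 5 kb, -0.131 for 5′ minus 3′ side, 10 to 25 kb, -0.0157 for 5′ minus 3′ side, 25 to 50 kb and 0.141 for over 200 kb minus 50 to 200 kb, 1 CpG. The last were 1.72 for under 10 kb minus 10 to 50 kb, 6 to 10 CpGs, 0.143 for bin 1 minus bin 10, over 200 kb, 0.424 for many minus few promoter CpGs, first 5 kb and 18.1 for Cdk8. Cdk8 had 0 undeaminated calls at 0 h and so no finite estimate in this model. With 5 kb left out around gene ends the values were 1.35 for bin 1, -0.0841 for 50 to 200 kb minus 10 to 50 kb, -0.998 for 5′ minus 3′ side, 5 to 10 kb and -0.51 for 5′ minus 3′ side, 10 to 25 kb. Without 12 h C the values were -0.0402 for 50 to 200 kb minus 10 to 50 kb and 0.0612 for 5′ distance 2 to 5 kb. Without 12 h B the value was 0.067 for 5′ distance 2 to 5 kb. Without the 10 best covered genes of each class the value was 0.0588 for 5′ distance 2 to 5 kb. Without 0 h B the value was 0.37 for Bcl11b. In the 12 h libraries alone the value was 0.143 for Bcl11b. Over the fits without 1 library 50 to 200 kb minus 10 to 50 kb ranged from -0.0402 to 0.594, 5′ distance 2 to 5 kb ranged from -0.576 to 0.067, Bcl11b ranged from -36.8 to 0.37. Values from the logit and quasi-binomial fits, and from the 12 h libraries alone, are log odds. Depth limits single genes: 473 of 20665 could be tested, and none under 10 kb.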

Other observations

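Reads with most of their calls undeaminated were counted where a read had enough calls, and shorter ones were not examined. Among reads with 6 or more inner gene-body calls, 3 of 1380 in 0 h A, 3 of 687 in 0 h B and 7 of 862 in 0 h C had most of their calls undeaminated, and these reads held 2.85, 5.66 and 6.60% of all undeaminated inner calls. At 12 h the share of such reads was 13.3, 13.8 and 16.4%. A single read could still set the level of a gene: Bcl11b, a zinc finger transcription factor, had 14 of 53 calls undeaminated at 0 h, and 13 of these lay on 1 read of 0 h B with 15 calls. Its deviation of -19.8 ± 30.9 points (SE, limma adjusted p = 0.808) was the largest below and did not pass.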
